A study of Mus musculus with 2 samples.

Results

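The 10 CC chemokine ligand genes Ccl2, Ccl3, Ccl4, Ccl6, Ccl7, Ccl8, Ccl9, Ccl12, Ccl22 and Ccl24 are described here in CD11b-selected cells of mouse cochleae. They were chosen by symbol, and all 10 were found among the 48709 genes of the files. Droplet-based 3' single-cell RNA sequencing had been run on 1 library of cells from cochleae with an implanted electrode and on 1 library of cells from cochleae without one. The mice of both libraries were of the strain C57BL/6J/B6 and the genotype CX3CR1+/GFP Thy1+/YFP, with males and females pooled, and CD11b+ cells had been taken with magnetic beads 33 days after implantation per the series text. The labels give neither the age and number of the animals nor whether the electrode released dexamethasone, and leave unsaid whether cochleae without an electrode came from the opposite ears of the implanted mice. The GFP allele replaces 1 copy of Cx3cr1, so both libraries come from mice with 1 working copy of that receptor gene. There were no replicates, no test was made and no p-value is given. The intervals are 95% intervals that cover counting error only, not the spread between animals or libraries.

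CC chemokines are small secreted proteins that draw leukocytes along a gradient through G protein-coupled receptors of the CCR family. Ccl2, Ccl7 and Ccl12 act on Ccr2 and draw monocytes out of the marrow and into tissue, while Ccl3 and Ccl4 are made by activated myeloid cells, and Ccl3 acts on Ccr1. In an injured cochlea, monocytes that enter from the blood and macrophages that live in the tissue are both possible makers and receivers of these signals.

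The genes Ccl2 to Ccl12 all lie on chromosome 11 in a pair of groups (GRCm38, GENCODE M21, whole genes with exons and introns, 3 or 4 exons each). The first group runs Ccl2 at chr11:82035571-82037453, Ccl7 at chr11:82045712-82047525, Ccl12 at chr11:82101845-82103400 and Ccl8 at chr11:82115185-82116799, all on the plus strand. The second lies 1456119 bases further on, with Ccl9 at chr11:83572919-83578636, Ccl6 at chr11:83587882-83593087 and Ccl3 at chr11:83647844-83649355 on the minus strand and Ccl4 at chr11:83662584-83664683 on the plus strand. Ccl22 lies at chr8:94745590-94751699 on the plus strand and Ccl24 at chr5:135569937-135573049 on the minus strand. Ccl2 overlaps Gm17268 and Ccl6 overlaps E230016K23Rik, each on the opposite strand, and whether the counting used strand is not given in the sources used here. Over the 45 pairs of members, the longest stretch of identical transcript bases was 25 (Ccl6 and Ccl9) and the median was 11.

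The 150 bases before the annotated start are shown for a pair of neighbours from each group, because Ccl12 and Ccl8 had most of their transcripts in the same class of cells, while those of Ccl6 and Ccl9 lay in different ones. They are taken from the RefSeq promoter table of GRCm38.p6, which held 6 of the 10 members, and capitals mark runs of at least 6 bases that are identical in the local alignment of the pair.
Ccl12: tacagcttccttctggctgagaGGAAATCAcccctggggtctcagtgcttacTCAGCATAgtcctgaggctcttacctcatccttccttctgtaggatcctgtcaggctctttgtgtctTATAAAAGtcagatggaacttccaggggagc
Ccl8: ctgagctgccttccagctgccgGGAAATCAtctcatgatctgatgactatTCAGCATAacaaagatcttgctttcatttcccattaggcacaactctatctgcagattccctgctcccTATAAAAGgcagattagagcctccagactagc
Ccl6: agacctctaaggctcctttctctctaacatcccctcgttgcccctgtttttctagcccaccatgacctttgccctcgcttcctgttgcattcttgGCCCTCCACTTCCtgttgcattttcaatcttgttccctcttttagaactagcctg
Ccl9: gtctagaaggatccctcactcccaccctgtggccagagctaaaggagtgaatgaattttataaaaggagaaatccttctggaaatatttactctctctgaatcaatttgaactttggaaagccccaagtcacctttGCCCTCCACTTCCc
They lie at chr11:82101695-82101844 (Ccl12, plus strand), chr11:82115035-82115184 (Ccl8, plus strand), chr11:83593088-83593237 (Ccl6, minus strand) and chr11:83578637-83578786 (Ccl9, minus strand). The Ccl12 and Ccl8 stretches aligned over 152 columns with 94 identical bases and an alignment score of 54, the highest of the 15 pairs. The pair of Ccl6 and Ccl9 came next with a score of 30 over 17 columns, and the other pairs scored 15 to 27. Motifs were searched in a window that reached further upstream than the 150 bases shown, for the members and for all promoters alike. The letters TATAAA, searched on the gene's strand, began 31 bases before the start of Ccl12, 32 before that of Ccl8 and 92 before that of Ccl9, and 7.59% of the 32851 promoters of the table held them. The core GAGGAA that PU.1, a myeloid transcription factor, can bind was found on either strand before Ccl3, Ccl8 and Ccl12 and in 23.3% of all promoters. Its match before Ccl8 began 240 bases from the start, outside the bases shown. An NF-kB motif, searched on both strands, was found before Ccl9 alone of the 6 and in 7.25% of all promoters. The AP-1 letters TGANTCA were likewise found before Ccl9 alone, 53 bases from the start, and in 6.75% of all promoters, whereas TTGCNNAA (C/EBP, 9.56% of all) and TTCNNNGAA (STAT, 7.02% of all) were before none of the 6, all on both strands. These matches describe letters in the window searched and say nothing of binding in these cells.

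After leaving out barcodes with fewer than 200 genes or more than 10% mitochondrial UMIs (unique molecular identifiers, each a captured transcript), 3149 implanted and 3513 non-implanted cells remained, with 19426864 and 21485090 UMIs and a median of 4371 and 4238 per cell. The libraries shared 6 barcodes. The pan-leukocyte gene Ptprc was found in 90.3% of implanted and 93.3% of non-implanted cells. Itgam, the gene of CD11b, had 0 UMIs in each library, and the bead selection cannot be checked by its transcript. Clustering without the 10 ligands gave 19 clusters, named by marker genes with names ending in "-like". There were 1478 implanted and 1714 non-implanted neutrophil-like cells, 819 and 1046 granulocyte precursor-like cells, 315 and 270 monocyte-like cells, and 285 and 248 macrophage/dendritic-like cells. The last class carries a joint name because its largest cluster had 4 macrophage and 4 dendritic cell markers among its 10 leading genes. The cells with the highest doublet scores, 2.67% of implanted and 2.90% of non-implanted cells, were kept as a class of their own. The members were not used for clustering, yet Ccl6 was among the 10 leading genes of cluster 2 and Ccl4 among those of cluster 7, so levels across clusters are a description.

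The 10 ligands together held 31474 UMIs in the implanted library and 32987 in the non-implanted library, or 1620 and 1535 CPM (UMIs per 1e6), and 66.0% and 67.3% of the cells had at least 1 of them. Ccl6 accounted for 15773 and 19210 of these UMIs. By the class with the largest share of a gene's UMIs over both libraries, the ligands fell into 3 groups. Ccl2, Ccl7, Ccl8, Ccl12, Ccl22 and Ccl24 had their largest share in macrophage/dendritic-like cells, Ccl9 in monocyte-like cells, and Ccl3, Ccl4 and Ccl6 in neutrophil-like cells. For scale, 9.05% of implanted and 7.06% of non-implanted cells were macrophage/dendritic-like, and these held 9.47% and 6.90% of all UMIs. As a rough measure of what free RNA in the droplets can give, erythroid-like cells, which should make none of these genes, had UMIs of Ccl6 in 14.1% and 7.32%, of Ccl3 in 10.3% and 2.44%, of Ccl4 in 10.3% and 4.88% and of Ccl2 in 2.56% and 2.44% of 78 implanted and 41 non-implanted cells. The implanted ones held 59 Ccl4, 25 Ccl6 and 20 Ccl2 UMIs, so some cells held several UMIs of the same gene. An erythroid-like cell was also 1 of the 10 implanted cells with most Ccl12. Whether free RNA alone gave these UMIs was not tested. The median depth of the erythroid-like cells was 7639 and 10666 UMIs, and after thinning to 1000 UMIs per cell 4.11% and 2.50% of those deep enough had Ccl6 and 5.48% and 0% had Ccl4.

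**Figure D1:**
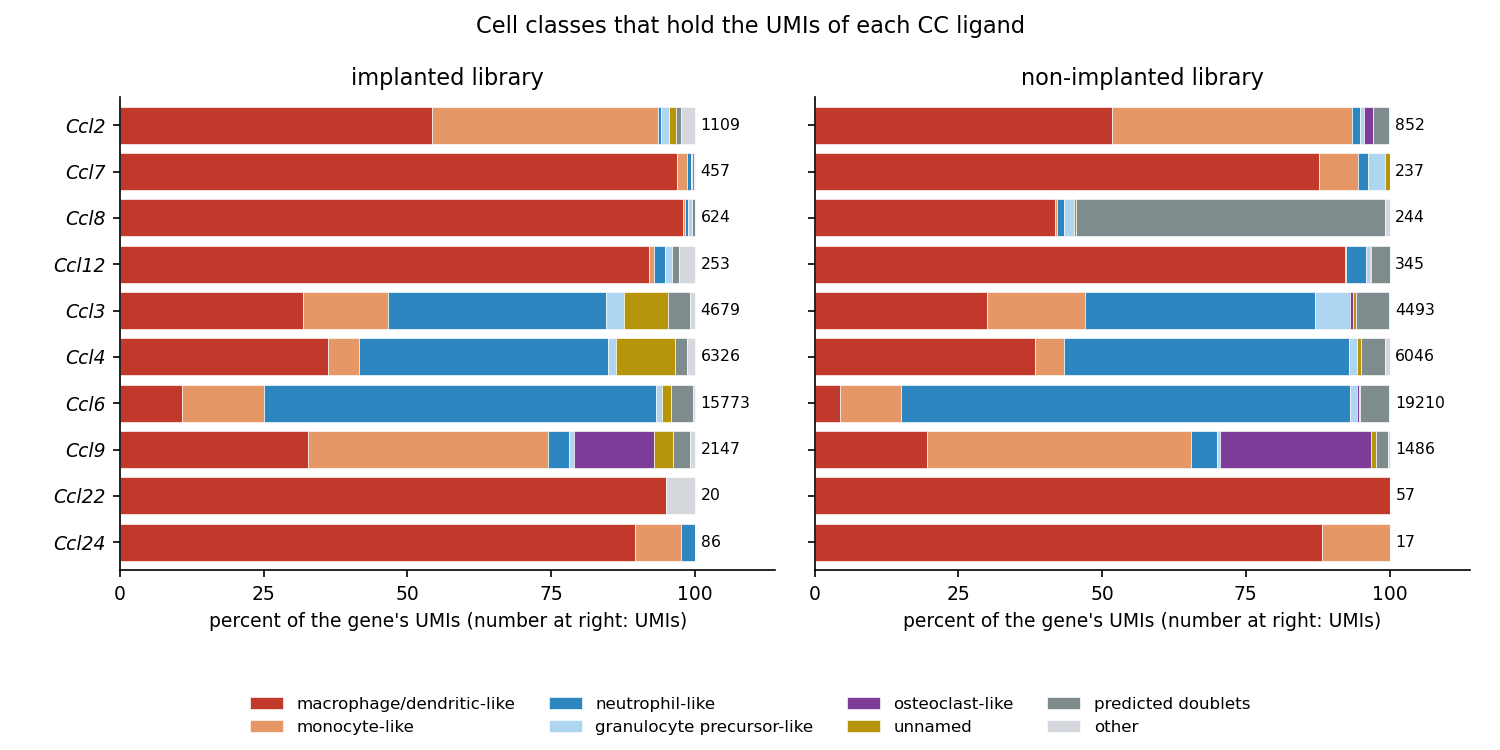
Percent of each ligand's UMIs (horizontal axis) held by each cell class, with the implanted library on the left and the non-implanted library on the right; the number beside each bar is the gene's UMI count. Ccl7, Ccl12 and Ccl24 lie mostly in macrophage/dendritic-like cells, Ccl6 mostly in neutrophil-like cells, and 131 of the 244 non-implanted Ccl8 UMIs lie in predicted doublets.

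Ccl2, the main Ccr2 ligand that recruits monocytes, lay in macrophage/dendritic-like and monocyte-like cells. It had 601 UMIs in implanted and 441 in non-implanted macrophage/dendritic-like cells, or 327 CPM (95% interval 301 to 354) against 298 CPM (271 to 327). Monocyte-like cells had 200 CPM in the implanted and 186 CPM in the non-implanted library. The first class held 54.2% of implanted and 51.8% of non-implanted Ccl2 UMIs, and the second 39.3% and 41.8%. Among clusters, the level was highest in cluster 8 (led by the MHC class II genes H2-Eb1 and H2-Ab1 and by C1qa), with 379 and 324 CPM, and next in cluster 18 (leading genes Mmp12, Mfge8, Spp1, Gpnmb and Arg1), with 311 CPM in 61 implanted cells and 0 UMIs in the only 2 non-implanted cells. One cell held 121 of the 208 implanted Ccl2 UMIs of cluster 18, and without it the level there was 133 CPM (106 to 164), below clusters 9 and 11. The intervals of clusters 9 and 11 overlapped over both libraries together. The monocyte clusters 9 and 11, led by Vcan and by Hspa1a and F13a1, had 246 and 219 CPM in the implanted library and 231 and 232 CPM in the non-implanted library, while cluster 15, led by Adgre4 and Ace and called monocyte-like on a naming score of 4.47 that lay under its score of 4.52 for granulocyte precursors, had 19.8 and 5.19 CPM. Neutrophil-like cells had 1.23 and 2.00 CPM. The ratio of implanted to non-implanted CPM was 1.10 (0.969 to 1.24) in macrophage/dendritic-like and 1.07 (0.930 to 1.24) in monocyte-like cells, both intervals including 1.

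Ccl7, the neighbour of Ccl2 and likewise a Ccr2 ligand, was found mostly in macrophage/dendritic-like cells, which held 443 of its 457 implanted and 208 of its 237 non-implanted UMIs. The level in this class was 241 CPM in the implanted and 140 CPM in the non-implanted library, a ratio of 1.72 (1.45 to 2.03). Its UMIs sat in cluster 8, with 242 and 154 CPM, and in the implanted cluster 18, with 290 CPM, or 197 CPM without the 1 cell with most of it. Monocyte-like cells, which had Ccl2, had few Ccl7 UMIs, 8 and 16. The 10 cells with most of it held 77.0% of implanted and 72.6% of non-implanted Ccl7 UMIs. In macrophage/dendritic-like cells, 25 implanted and 20 non-implanted cells had both Ccl2 and Ccl7, where the shares multiplied give 9.03 and 7.68 cells. Their median depth was 8307 and 10288 UMIs against 4873 and 5089 for the class, and depth raises detection of both genes at once.

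Ccl12, a further Ccr2 ligand, was higher in clusters 8 and 12 than in cluster 18. Its level was 185 and 210 CPM in cluster 8 and 170 and 254 CPM in cluster 12, led by Retnla, C1qa and Apoe. The implanted part of cluster 18 had 28.4 CPM, with 16 of the 19 UMIs in 1 cell. Over the class it had 127 CPM in the implanted and 215 CPM in the non-implanted library, a ratio of 0.590 (0.496 to 0.701). Within cluster 8 alone the ratio was 0.879 (0.726 to 1.06). Monocyte-like cells had 2 and 1 UMIs. Cluster 12 was shallow, with a median of 949 and 1290 UMIs per cell, and had 54537 and 55222 CPM of the neutrophil gene S100a8.

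Ccl8, a ligand of Ccr8 in the mouse, was carried by very few cells. Of its 624 implanted UMIs, 387 (62.0%) were in 1 cell of cluster 18 with 14150 UMIs in all, which also had 121 Ccl2, 64 Ccl7 and 158 C1qa UMIs. A second implanted cell held 127 Ccl8 UMIs. That cell had 65427 UMIs in all, among them 4069 of S100a8, and lay in cluster 8, where the median was 6831. Of the 244 non-implanted Ccl8 UMIs, 129 (52.9%) were in 1 cell of 36636 UMIs among the predicted doublets, which had 31 C1qa and 72 H2-Aa UMIs. With these cells of the class counted, Ccl8 was found in 6.67% of 285 implanted and 6.45% of 248 non-implanted macrophage/dendritic-like cells, so the share of cells was nearly the same in both libraries. The class had 332 CPM in the implanted and 68.9 CPM in the non-implanted library. The ratio of 4.83 (3.91 to 6.01) came to 3.01 (2.26 to 4.08) without the 1 cell of the class in each library with most Ccl8 and to 2.03 (1.15 to 3.74) without the 5 such cells, when 44 and 18 UMIs remained. It came to 2.18 (1.87 to 2.54) when the predicted doublets were put back into the classes, with 612 and 231 UMIs. Without cluster 18 it was 2.47 (1.94 to 3.17), with 127 of the 200 implanted UMIs in the cell of 65427 UMIs. Without that cell too, 73 implanted UMIs remained and the levels were 66.1 and 69.2 CPM, a ratio of 0.956 (0.698 to 1.30), and 1.62 (1.13 to 2.31) when the leading non-implanted cell was also left out.

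**Figure D2:**
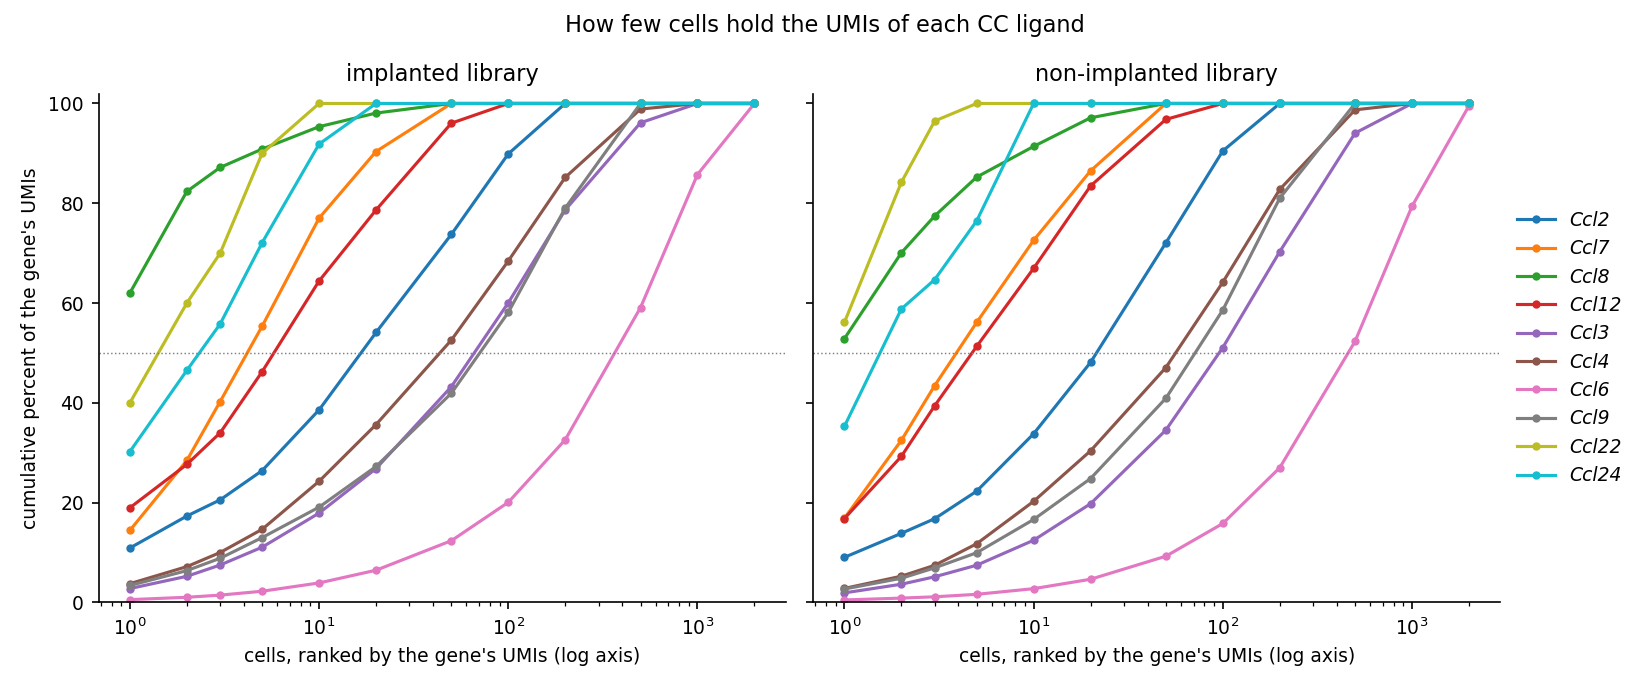
Cumulative percent of each ligand's UMIs (vertical axis) over the cells ranked by that ligand's UMIs (log horizontal axis), implanted library on the left and non-implanted library on the right; the dotted line marks 50 percent. One cell holds over 50 percent of Ccl8 in both libraries, whereas 383 implanted and 468 non-implanted cells are needed for Ccl6.

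Ccl3 and Ccl4, inflammatory chemokines that activated myeloid cells release, had large parts of their UMIs in both neutrophil-like and macrophage/dendritic-like cells. Neutrophil-like cells held 38.0% of implanted and 40.0% of non-implanted Ccl3 UMIs and 43.3% and 49.7% of the Ccl4 UMIs, and macrophage/dendritic-like cells 31.9% and 30.0% of Ccl3 and 36.2% and 38.4% of Ccl4. Within the neutrophil-like class the levels differed widely between clusters. Cluster 7, led by Csf1 and Il1b, had 1407 and 1046 CPM of Ccl3 and 1909 and 1637 CPM of Ccl4, and cluster 4, led by Acod1 and Cxcl2, had 777 and 519 CPM of Ccl3 and 1122 and 756 CPM of Ccl4. Cluster 3, led by Retnlg and Mmp8, had 91.5 and 67.3 CPM of Ccl3, and cluster 5 had 19.5 and 14.0 CPM. A Ccl3 UMI was found in 21.4% of implanted and 22.9% of non-implanted neutrophil-like cells, at a median depth of 2935 and 2854 UMIs, and in 44.9% and 46.7% of cluster 7. The shares in erythroid-like cells were 10.3% and 2.44% at a depth of 7639 and 10666 UMIs, and a cell without a UMI may still hold the transcript. Among macrophage/dendritic-like cells, cluster 8 had 1273 and 958 CPM of Ccl3 and 2048 and 1617 CPM of Ccl4, whereas implanted cells in cluster 18 had 175 CPM of Ccl3 and 74.7 CPM of Ccl4. The intervals of clusters 7 and 8 overlapped for each of these genes over both libraries together.

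The genes were found together more often than their shares multiplied give, in cells deeper than their class among macrophage/dendritic-like cells and shallower among neutrophil-like cells. In the first class 86 implanted and 85 non-implanted cells had both, where the product is 51.3 and 50.1 cells, and their median depth was 7021 and 6156 UMIs. In neutrophil-like cells 128 and 157 cells had both, where it is 64.8 and 78.2. The median depth of the neutrophil-like cells with both was 2308 UMIs in each library, below the 2935 and 2854 of the class. The pairing was not complete: in monocyte-like cells Ccl3 had 314 and 402 CPM and Ccl4 157 CPM in each library, and in cluster 11 Ccl3 had 664 and 773 CPM while Ccl4 had 268 and 287 CPM. In cluster 17, which could not be named because its leading genes came from 5 cell types, 8 implanted cells and 1 non-implanted cell with at least 3 UMIs of the basophil genes Mcpt8 and Prss34 held 333 and 21 Ccl3 UMIs and 625 and 18 Ccl4 UMIs. The remaining 31 cells of that cluster in each library held 24 and 5 Ccl3 and 18 and 16 Ccl4 UMIs, a split chosen after the values were seen.

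Between the libraries, both genes stayed under the 1.5-fold mark in each of the 4 classes compared. With the libraries clustered separately, Ccl3 in monocyte-like cells was at a log2 ratio of -1.71, against -0.35, and Ccl4 in macrophage/dendritic-like cells at -0.82, against -0.33, both past the mark. In macrophage/dendritic-like cells Ccl3 had 812 CPM in the implanted and 909 CPM in the non-implanted library (ratio 0.893, 0.829 to 0.962) and Ccl4 had 1245 and 1567 CPM (0.794, 0.749 to 0.842). In neutrophil-like cells Ccl3 had 365 and 327 CPM (1.12, 1.05 to 1.19) and Ccl4 562 and 546 CPM (1.03, 0.977 to 1.08). The libraries differed in how that class was made up. With every neutrophil-like cluster given the same weight in both libraries, the ratios were 1.27 for Ccl3 and 1.18 for Ccl4. The direction in macrophage/dendritic-like cells depended on cluster 18, which had 61 implanted and 2 non-implanted cells: without it, the ratios were 1.29 (1.20 to 1.39) for Ccl3 and 1.22 (1.15 to 1.29) for Ccl4.

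Ccl6, a Ccr1 ligand of rodents, was highest in neutrophil-like cells. It had 2205 CPM in implanted and 2730 CPM in non-implanted neutrophil-like cells, of which 77.0% and 86.3% had a UMI, against 20.3 and 24.1 CPM in granulocyte precursor-like cells. Cluster 2, with Stfa2l1 and Csf3r among its leading genes, had 4385 and 4464 CPM, and 299 of its 305 implanted and 445 of its 453 non-implanted cells had a UMI. Clusters 3, 4, 7 and 14 had 2435 to 3379 CPM in the implanted and 2687 to 3360 CPM in the non-implanted library. Cluster 5, whose naming score for neutrophils (4.69) lay close to that for granulocyte precursors (4.62), had 243 and 495 CPM. After thinning to 1000 UMIs, 68.3% of implanted and 75.9% of non-implanted neutrophil-like cells still had it. The ratio for the class was 0.808 (0.788 to 0.828), and the 2 libraries differed in how the class was made up: cluster 5 was 23.3% of implanted and 13.8% of non-implanted neutrophil-like cells. With every cluster given the same weight in both libraries, the levels were 2405 and 2568 CPM, a ratio of 0.936.

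Monocyte-like cells had 1042 and 1075 CPM of Ccl6, found in 89.8% and 88.5% of them, with a ratio of 0.969 (0.912 to 1.03). Neutrophil transcripts were present beside Ccl6 in other classes, and their part was not tested. Per 100 UMIs of the neutrophil genes S100a8 and S100a9 there were 2.28 and 2.38 Ccl6 UMIs in the neutrophil cluster 2, and 1.51 and 1.44 in cluster 12, within the range of neutrophil clusters 2, 3, 4, 7 and 14. Cluster 8, the largest of the macrophage/dendritic-like class, had 1.59 in the implanted library, within that range, and 0.906 in the non-implanted library, below it. That range leaves out neutrophil cluster 5, which had 0.0789 and 0.158. The whole neutrophil-like class had 0.947 and 1.20, predicted doublets 0.267 and 0.343, and granulocyte precursor-like cells 0.00677 and 0.00773. In the monocyte clusters 9 and 11 there were 14.4 and 42.6 in the implanted and 54.8 and 28.5 in the non-implanted library, and in the implanted cells of cluster 18 there were 6.85. The highest value of any neutrophil cluster was 2.38. Cluster 15 had 0.213 and 0.281. Ccl6 in macrophage/dendritic-like cells had 918 CPM in the implanted and 565 CPM in the non-implanted library, a ratio of 1.62 (1.49 to 1.77). The 922 implanted UMIs of cluster 18 made up a large part, and the ratio was 1.16 (1.05 to 1.28) without that cluster.

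Ccl9, also a Ccr1 ligand and the next gene to Ccl6, was seen in few neutrophil-like cells and in most monocyte-like and osteoclast-like cells. Monocyte-like cells had 410 and 357 CPM, found in 80.6% and 81.1% of them, and neutrophil-like cells 16.4 and 12.0 CPM, found in 3.32% and 2.86%. Clusters 9 and 11 had 485 and 467 CPM in the implanted and 480 and 382 CPM in the non-implanted library. The osteoclast-like cells, led by Ctsk and Acp5, were few and deep, with 11 implanted and 28 non-implanted cells and a median of 24503 and 21398 UMIs. All 11 and 96.4% of the 28 had a Ccl9 UMI, and the level was 1157 and 676 CPM. These cells also supplied 6 of the 10 implanted and all 10 of the non-implanted cells with most Ccl9. Ccl9 in macrophage/dendritic-like cells had 382 and 196 CPM, a ratio of 1.94 (1.69 to 2.24). In cluster 8 it had 206 CPM in both libraries (ratio 0.996, 0.827 to 1.20), and implanted cells in cluster 18 had 700 CPM.

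Ccl22, a Ccr4 ligand of dendritic cells and some macrophages, had 20 implanted and 57 non-implanted UMIs, all but 1 of them in cluster 8. Cells with at least 2 of its UMIs numbered 5 and 3. All 8 had the MHC class II gene H2-Aa, and 1 implanted and 0 non-implanted ones had C1qa. Of the dendritic cell genes looked at, Flt3 was in 4 of the 5 implanted and all 3 non-implanted ones. Zbtb46 was in 4 and 2, Fscn1 in 2 and 1 and Ccr7 in 1 and 2 of them. One cell held 8 of the 20 implanted UMIs and another held 32 of the 57 non-implanted ones. Ccl24, a Ccr3 ligand that draws eosinophils, had 86 implanted UMIs in 16 cells and 17 non-implanted UMIs in 9 cells. Cluster 18 held 66 of the implanted UMIs (98.6 CPM), in 13.1% of its cells, and 60.1 CPM remained there without the 1 cell with most of it. Without that cluster the class had 9.41 CPM in the implanted and 10.2 CPM in the non-implanted library.

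**Figure D3:**
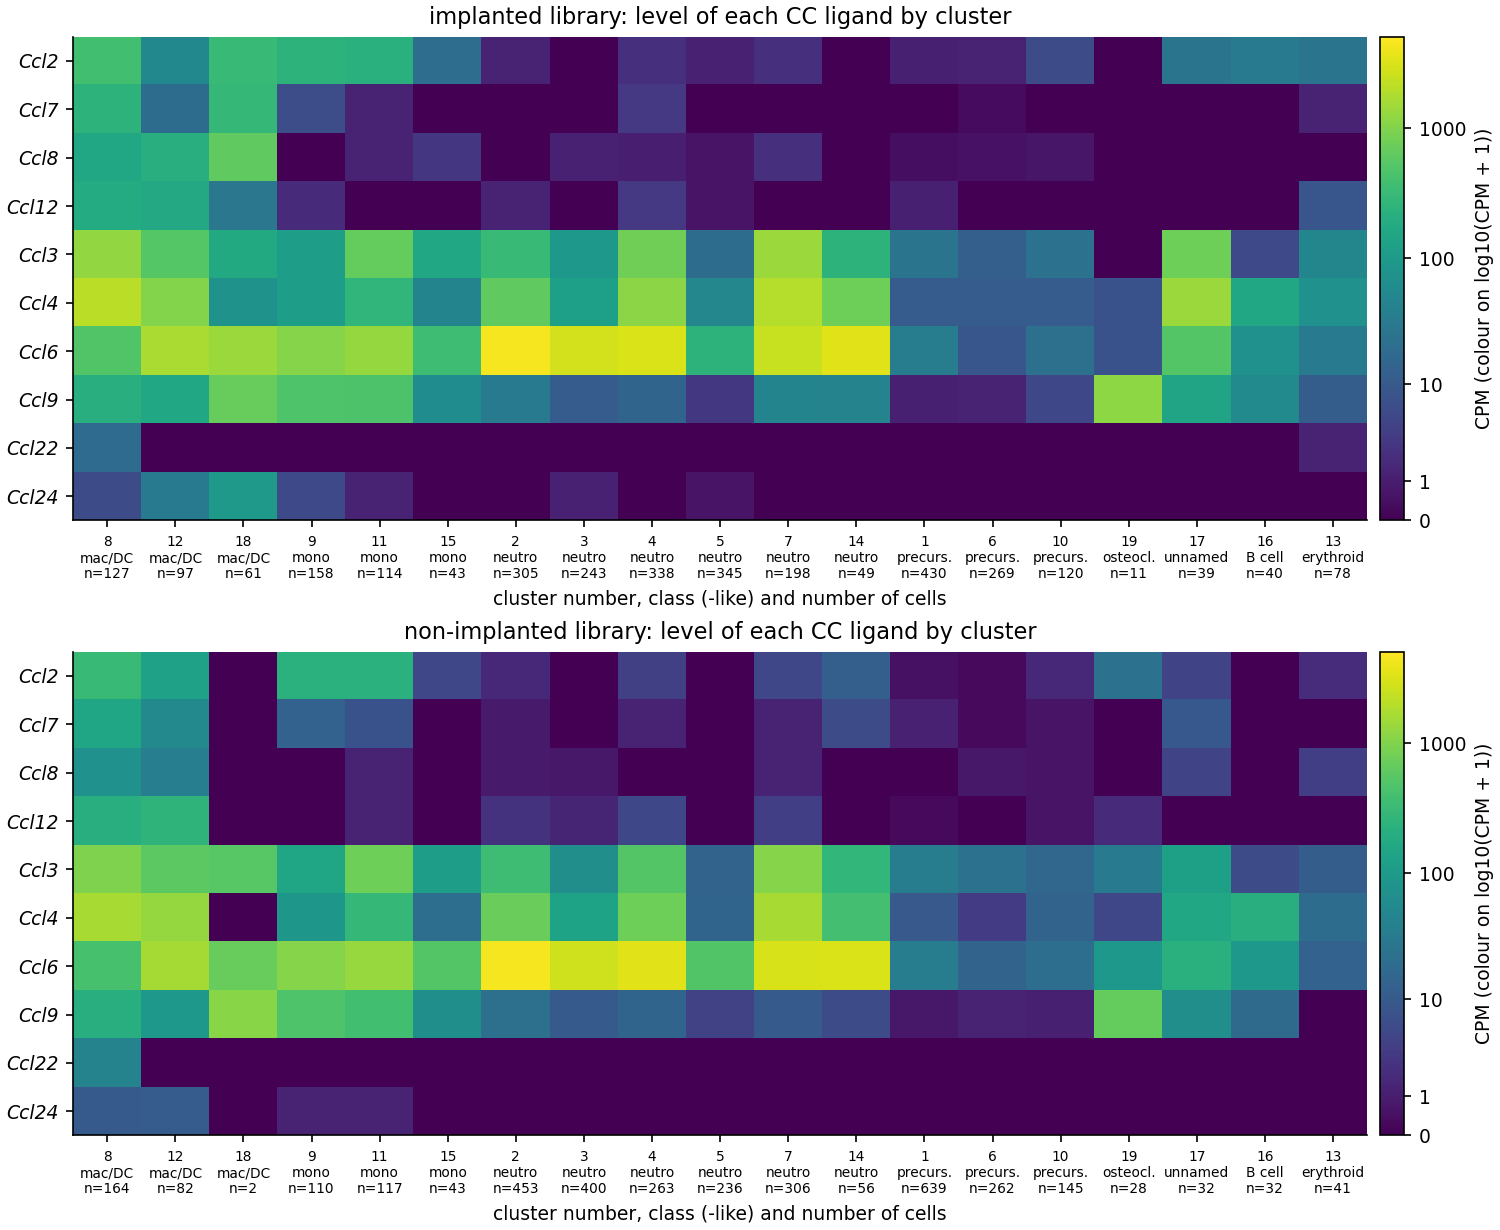
Level of each ligand (rows, colour in CPM on a log10(CPM + 1) scale) in each cluster (columns, grouped by class, with the number of cells), implanted library above and non-implanted library below. Ccl6 is highest in neutrophil clusters 2, 3, 4, 7 and 14, Ccl3 and Ccl4 in clusters 7 and 8, and Ccl9 in clusters 9, 11, 18 and 19; cluster 18 has only 2 non-implanted cells.

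In macrophage/dendritic-like cells, 5 of the 10 ligands were at least 1.5-fold higher in the implanted library (Ccl6, Ccl7, Ccl8, Ccl9 and Ccl24) and 2 were at least 1.5-fold lower (Ccl12 and Ccl22), on the log2 ratio of CPM + 5 and with at least 20 UMIs. Of the 9886 genes counted in the class, 8.50% were higher by that mark and 8.54% lower, 17.0% in either direction. The median log2 ratio was 0.41 over the 10 ligands and -0.01 over all genes. The composition of the class differed between libraries. Cluster 8 made up 44.6% of its implanted and 66.1% of its non-implanted cells, cluster 12 34.0% and 33.1%, and cluster 18 21.4% and 0.806%. Without cluster 18, Ccl8 alone was at least 1.5-fold higher (log2 ratio 1.25), Ccl22 alone was lower (-1.04), Ccl7 lay at 0.58, just under the mark, and the median was 0.19, where 5.95% of 9313 genes were higher and 5.91% lower. The Ccl8 value leaned on 1 implanted cell, as given above: it was -0.06 without that cell. With the leading non-implanted cell also left out it was 0.63, past the mark. The summed level of the 15 macrophage markers, all detected in both libraries, was 31528 CPM in the implanted and 18948 CPM in the non-implanted class, and that of the 17 dendritic cell markers was 20288 CPM with 15 detected and 35525 CPM with 16 detected. That of the 15 neutrophil markers, all detected, was 42997 and 61078 CPM. Their part in the ligand ratios was not tested. Such sums lean on the highest genes. Over both libraries Spp1 had 14354 CPM in cluster 18 against 119 CPM in cluster 8, and Cd68 and Pf4 were also higher in cluster 18. The macrophage markers C1qa, C1qc, Adgre1, Csf1r and Mrc1 were lower there than in cluster 8. After thinning each cell to 1000 UMIs, which left out 54 implanted and 36 non-implanted shallower cells, Ccl6 was found in 45.5% and 34.9%, Ccl9 in 20.8% and 13.7%, Ccl7 in 9.96% and 6.13%, Ccl12 in 6.06% and 9.43% and Ccl8 in 3.03% and 2.83% of the class.

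**Figure D4:**
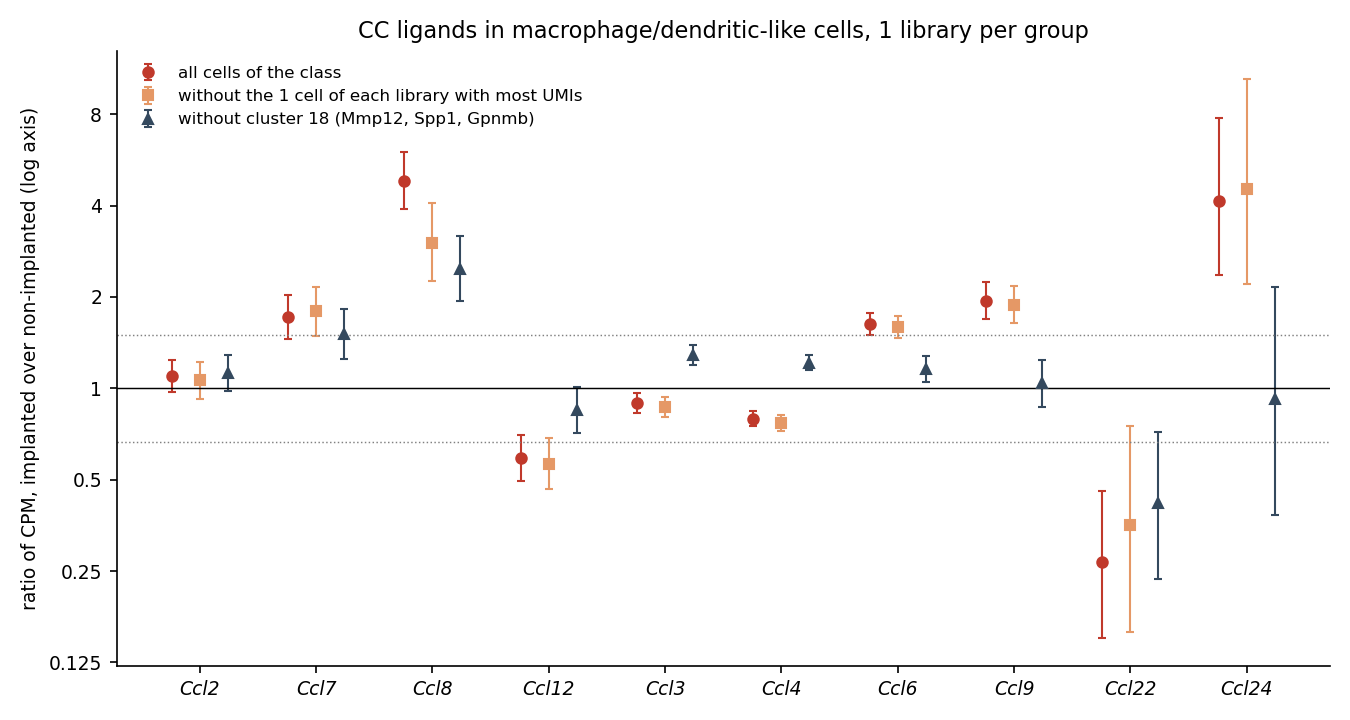
Ratio of CPM, implanted over non-implanted (log axis), of each ligand in macrophage/dendritic-like cells, with 95% counting intervals: all cells of the class, without the 1 cell of each library with most UMIs of that ligand, and without cluster 18. Dotted lines mark 1.5-fold. The ratios of Ccl9 and Ccl24 move to 1.04 and 0.924 without cluster 18, and that of Ccl8 to 2.47, with 127 of 200 implanted UMIs in 1 cell.

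In the other classes fewer ligands passed the 1.5-fold mark. In monocyte-like cells 0 of the 6 ligands with at least 20 UMIs were at least 1.5-fold higher and 1 was lower, Ccl7 with 24 UMIs in all, where 2.68% of 9741 genes were higher and 2.43% lower, 5.11% in either direction. In neutrophil-like cells 0 of 4 passed in either direction (1.63% higher and 0.594% lower of 9095 genes, 2.22% in either direction), and in granulocyte precursor-like cells 0 of 5 (1.02% higher and 0.179% lower of 11155 genes, 1.20% in either direction). Over all cells of a library, Ccl7, Ccl8, Ccl9 and Ccl24 were at least 1.5-fold higher and no ligand was lower (2.42% higher and 0.145% lower of 15153 genes, 2.57% in either direction). Those totals also carry the shares of the classes, which were 9.05% and 7.06% for macrophage/dendritic-like and 10.0% and 7.69% for monocyte-like cells.

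The receptors had their own spread over the classes. Ccr1, the receptor of Ccl3, Ccl6 and Ccl9, had its highest level of the main classes in neutrophil-like cells, with 519 CPM over both libraries, against 120 CPM in macrophage/dendritic-like cells. Ccr2 had 1035 CPM in monocyte-like, 350 CPM in macrophage/dendritic-like and 2.12 CPM in neutrophil-like cells. Among macrophage/dendritic-like cells, 6 of the 14 receptors had at least 20 UMIs, of which 2 were at least 1.5-fold higher and 2 lower, where 17.0% of all genes passed in either direction. The counts were also 2 and 2 without cluster 18, where 5.95% of 9313 genes were higher and 5.91% lower, with Ccr2 at a log2 ratio of -0.61. Ccr2 had 238 CPM in the implanted and 489 CPM in the non-implanted library (log2 ratio -1.02), and Ccrl2, an atypical receptor induced by inflammation, had 338 and 184 CPM (0.86). Ccr7 (1.53) and Ccr3 (-1.11) passed the mark on 53 and 10 implanted and 10 and 26 non-implanted UMIs, and 1 implanted cell held all 53 Ccr7 UMIs and another 70.0% of the 10 Ccr3 UMIs. In monocyte-like cells Ccrl2 had 205 and 124 CPM (0.70) and Ccr2 1047 and 1022 CPM.

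Among the 13 further CC ligands found in the files, Ccl5 and Ccl25 had at least 20 UMIs in macrophage/dendritic-like cells, and neither passed 1.5-fold there. Of 10 genes that inflammatory stimuli induce together with these ligands, 1 was at least 1.5-fold higher in macrophage/dendritic-like cells, the neutrophil chemokine Cxcl2 with 3175 and 1501 CPM (1.08), which is near the 8.50% of all genes, and the median of the 10 was 0.38. Without cluster 18, 4 of the 10 were higher, where 5.95% of all genes were. In monocyte-like cells 2 of the 10 were higher, Cxcl2 with 300.3 and 140 CPM (1.08) and Nfkbia, a feedback inhibitor of NF-kB, with 785 and 446 CPM (0.81), where 2.68% of all genes were higher. None of the 10 passed in neutrophil-like cells, where their median was -0.07.

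Over 36 sums of at least 20 cells (cluster by library), the genes whose log2(CPM + 10) ran most alike with each ligand were found among 11129 genes, as a description of points that share libraries and depth. Ccl8 and Ccl24 named each other (Pearson r = 0.914), Ccl8 with Igf1 at 0.947 and Ccl24 with Arg1 at 0.899. Over 19 sums of both libraries Ccl8 remained nearest to Ccl24, but Igf1, Pdlim4 and Ccl7 were nearest to Ccl8, and 387 of the 411 Ccl8 UMIs of cluster 18 were in 1 cell. Ccl4 had Abhd15 (0.869) and Ccl3 (0.847) as its nearest genes, and Ccl3 had Atf3 (0.871). Ccl12 ran with Fcrls (0.963), Ccl2 with Ms4a6d (0.934), Ccl7 with Arhgap22 (0.942), Ccl6 with Junb (0.958), Ccl9 with Ctsa (0.935) and Ccl22 with Ehf (0.913).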

How the data were processed

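The authors deposited counts of UMIs per gene and barcode for 2 libraries, made with Cell Ranger 3.0.1 per the file headers; the submitters' processing notes also name Seurat and the builds mm10 and GRCm38. The aligner is not given in the sources used here, nor are its gene models. Of 48816 rows, 92 spike-ins and 15 transgenes were left out of totals, leaving 48709 genes. Barcodes with at least 200 genes and at most 10% mitochondrial UMIs were kept. Scrublet's highest-scoring cells (0.8% per 1000 barcodes) formed a class of predicted doublets.

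Cells were clustered without the 10 ligands (scanpy 1.11.5, 2000 variable genes, 30 components, 15 neighbours, Leiden with leidenalg 0.10.2, resolution 1) and named from marker lists. The members and lists were chosen with earlier results of these data known, and the naming score and the joint macrophage/dendritic class were settled after the clusters were seen. All 10 members are named, with the 3 genes nearest to each considered and the pathway genes that passed the fold. UMIs were summed per class and library and scaled to CPM. A gene counted as higher or lower at 1.5-fold on log2(CPM + 5), where the libraries had at least 20 UMIs between them, a scale that understates folds of low genes. With 1 library per group there is no test. Intervals are 95% and exact (Poisson for CPM, conditional for ratios); they take UMIs as independent, which makes them too narrow for genes that sit in few cells. Alternatives changed the pseudocount, scaling (TMM factors from edgeR 4.0.16 in R 4.3.3), UMI minimum, filters, doublets, clustering, weighting, thinning and leading cells. The scripts were tested on simulated data. Other tools were pandas 2.3.3, scipy 1.17.1, igraph 0.11.9, numpy 2.4.6, Biopython 1.88, scikit-learn 1.9.0 and matplotlib 3.10.9 under Python 3.11.15.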

Additional observations from a re-analysis of the deposited data

Results flagged for a closer look

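The ratio of implanted to non-implanted CPM of Ccl3 lay above 1 in neutrophil-like cells (1.12) and below 1 in macrophage/dendritic-like (0.893), monocyte-like (0.78) and granulocyte precursor-like cells (0.686), each with a counting interval that left out 1. The ratio of Ccl6 likewise went in opposite directions, 1.62 in macrophage/dendritic-like and 0.808 in neutrophil-like cells. With 1 library per group the differences between classes were not tested. Without cluster 18 the ratio in macrophage/dendritic-like cells was 1.29 for Ccl3 and 1.16 for Ccl6. With every neutrophil-like cluster given the same weight in both libraries, the ratio in neutrophil-like cells was 1.27 for Ccl3 and 0.936 for Ccl6.

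Among the barcodes that the cell filter left out, Ccl4 had 47 of 166139 UMIs in the implanted and 3 of 91943 UMIs in the non-implanted library, a ratio of CPM of 8.67 (2.79 to 43.5), in barcodes that no comparison used.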

How the results depend on the processing

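Of the counts and medians under the alternatives, 245 stayed within 1.5 times a count or within the counting error of a median, and 42 moved; of the values of single members, 602 stayed, 155 moved and 3 reversed, and the cause was not tested. For macrophage/dendritic-like cells the count of higher ligands was 3 with the same weight for every cell or cells thinned to 1000 UMIs; the count of lower ligands was 1 with 2 times the doublets out or thinning and 0 without the 5 leading cells; the median was -0.0079 with libraries clustered separately and 0.23 with the same weight for every cell. Chosen after seeing the data, leaving out cluster 18 gave 1 higher, 1 lower and a median of 0.19, with Ccl24 at -0.075, leaving out also the 1 leading cell of each library gave 1 higher, 1 lower and 0.16, with Ccl24 at -0.14, and leaving out cells over 20000 UMIs (15 implanted, 6 non-implanted) gave 1 lower and 0.59. Ccl22 was at 0.15 without the 5 leading cells, on 1 UMI or fewer per library. For monocyte-like cells the count of lower ligands was 0 with a pseudocount of 20, at least 50 UMIs, no cell filter, doublets left in (median -0.18), the same weight, thinning, or without the 1 or 5 leading cells. For neutrophil-like cells the median was 0.34 with a stricter cell filter, 0.26 with doublets left in, 0.27 at resolution 2 and 0.19 after thinning. For granulocyte precursor-like cells 2 were higher with a pseudocount of 1 and 1 with libraries clustered separately, and the median was -0.20 at 50 UMIs, -0.045 with no cell filter and -0.22 without the 5 leading cells. Over all cells 1 was lower with a pseudocount of 1 or thinning, 1 was higher with a pseudocount of 20 and 2 without the 5 leading cells, and the median was 0.22 with a pseudocount of 20, 0.24 with TMM, 0.20 with median-of-ratios scaling, 0.23 with the same weight and 0.25 without the 5 leading cells. The share of higher among all calls moved to 61.1% with median-of-ratios scaling, against 73.3%, in neutrophil-like cells, and to 66.0% with either scaling, against 85.1%, in granulocyte precursor-like cells. No paired analysis was possible because each group has 1 library, and no library could be left out. Ccl7, Ccl8, Ccl12, Ccl22 and Ccl24 rest on few cells.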
